A study of Drosophila melanogaster with 4 samples.

Results

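Chromosome arm 3R is the right arm of the third chromosome of Drosophila melanogaster, and its NURF301 regions are described here along the whole arm. NURF301 is the largest subunit of the nucleosome remodelling factor NURF, in which the ATPase ISWI slides nucleosomes along DNA. It carries the domains through which the complex meets modified histone tails and sequence-specific factors such as the GAGA factor, and its gene is known in flies as Enhancer of bithorax. NURF is known as a remodeller of promoters and regulatory elements, and flies that lack NURF301 fail in homeotic gene expression and in responses to the hormone ecdysone.

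The map came from ChIP-seq, where DNA bound to an antibody-captured protein is sequenced and set against the chromatin before capture, known as input. By their labels, all 4 libraries came from whole wild-type embryos of the strain Oregon-R, aged 14 to 16 h and fixed with 1.8% formaldehyde, and the antibody Q2602 against NURF301 was incubated with the chromatin for 15 h. There were 2 ChIP libraries, replicates 1 and 2, and 2 inputs, so the series has 1 strain, 1 age and 1 antibody and no treated group. The labels do not state that the replicates were separate collections of embryos, and whole embryos mix all cell types of that age.

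The regions were chosen by position alone, as the rows on 3R in the deposited lists, of which there is 1 for each ChIP replicate and 1 combined list for the pair. Rows that overlapped the Hox gene complexes, at 2480000 to 2830000 and at 12480000 to 12815000, were left out, which left 27.2 Mb of sequence. Replicate 1 then held 1280 regions of 5576 in all, replicate 2 held 1454 of 6320, and the combined list held 1874 of 8224. The main set was the 1161 regions of the combined list that shared at least 1 bp with both replicate lists, out of 5069 such regions in the series. Positions follow FlyBase r5, as the file headers state, and are counted from 1, with base 1 of 3R at the centromere-proximal end. Gene annotation and genome sequence of that release were not used here, so regions are named by position.

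The score of a region is the authors' own value and was read as a log2 ratio of ChIP to input reads, scaled by a constant for each list. Read counts recovered from the scores gave a median of 411.5 ChIP and 224.5 input counts per 3R region in replicate 1, and 544 and 295 in replicate 2. Counting alone gave a score a median error of 0.12 (log2) in replicate 1 and of 0.10 in replicate 2. The lists carry no read totals, so depth is known only inside the regions.

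Called NURF301 regions covered 12.3% of the arm outside the Hox complexes, averaged over the replicates, and were compact and of moderate enrichment. The 3R regions covered 11.1% of the sequence in replicate 1 and 13.5% in replicate 2, a mean of 12.3% ± 1.73 (SD, n = 2). Their density was 47.0 regions per Mb in replicate 1 and 53.4 in replicate 2, or 50.2 ± 4.52 per Mb (SD, n = 2). The main set had 42.7 regions per Mb and covered 12.4% of the sequence.

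Most main-set regions were 2 to 3 kb wide. Of the 1161, 772 (66.5%) measured from 2 to under 3 kb, 38 (3.27%) were narrower, and 94 (8.10%) were 4.5 kb or wider, up to 9795 bp. The median width was 2573 bp, with quartiles at 2253 and 3217 bp. The median score was 0.71, with quartiles at 0.53 and 0.89, and 193 regions (16.6%) scored above 1, which is a ratio of ChIP to input of more than 2 after the scaling of the list.

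Stronger regions were also wider. In the lowest quartile of main-set scores, from 0.22 to 0.53, the median width was 2137 bp, and it was 2407, 2675 and 2975 bp in the next quartiles, the last of which ran from 0.90 to 1.74. Spearman's rho between score and width was 0.56 across the 1161 regions, a description with no p, since both come from the same reads and the same caller. Neighbouring regions showed little relation in strength. The rho of adjacent scores was 0.035 over all 1158 adjacent pairs that do not flank a Hox complex, and 0.12 over the 407 pairs with 5 kb or less between them.

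Main-set regions have a partner in both replicates by choice, so their presence in both is no finding. The highest main-set score, 1.74, belonged to a 2599-bp region at 26911068 to 26913666. Its score was 1.70 in replicate 1, from 1002 ChIP and 273 input counts, and 1.87 in replicate 2, from 880 and 223. It ranked 1 by score among the 3R regions of replicate 1 and 2 in replicate 2, with a mean of 1.79 ± 0.12 (SD, n = 2). The region ranked 3 lay 22613 bp away on the proximal side, at 26884744 to 26888454, and scored 1.62 in replicate 1 and 1.81 in replicate 2.

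The second strongest region, 3927 bp at 4838542 to 4842468, differed more between the replicates. It scored 1.55 in replicate 1 and 1.92 in replicate 2, a mean of 1.73 ± 0.27 (SD, n = 2), and ranked 5 and 1. The region at 5633526 to 5636228 was the most alike of the 10, at 1.61 and 1.63.

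The others of the 10 lay at 25870528 to 25873662, 10132582 to 10135954, 25631280 to 25634254, 21866258 to 21869640, 24459394 to 24462902 and 27282622 to 27286248. Their scores in replicate 1 ranged from 1.41 to 1.57 and in replicate 2 from 1.63 to 1.80. All 10 were single regions in each replicate, and all scored higher in replicate 2. Within the top 10, 7 lay in the distal of 4 equal parts of the arm, from 20928790 onwards. That part held 258 of the 1161 main-set regions. The difference was not tested. The 59 main-set regions in the top 5% by score, all at 1.21 or above, were spread over 33 of the 56 windows of 500 kb, with at most 6 in any window, that from 25.5 to 26 Mb.

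By their combined-list scores, the widest domains were mostly of middling strength. The widest, from 4871844 to 4881638, was 9795 bp wide and scored 0.61. It was 1 region of 9250 bp in replicate 2 and 2 regions in replicate 1. The next, at 3296520 to 3304512, spanned 7993 bp at a score of 0.73 and was likewise 2 regions in replicate 1 and 1 in replicate 2. The domain at 23782830 to 23790126, of 7297 bp, was cut into 2 regions in each replicate, but at different places. It scored 0.70, and its strongest pieces scored 1.01 in replicate 1 and 0.71 in replicate 2.

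The region at 13439824 to 13447052 combined width with strength. It was 7124 bp wide with a score of 1.12 in replicate 1 and 7096 bp wide with a score of 1.23 in replicate 2, a single block in both. The fifth, at 7584144 to 7591360, spanned 7217 bp at a score of 0.66 and fell into 3 regions in replicate 1 and 2 in replicate 2. Its strongest pieces scored 0.78 in replicate 1 and 0.84 in replicate 2.

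**Figure D1:**
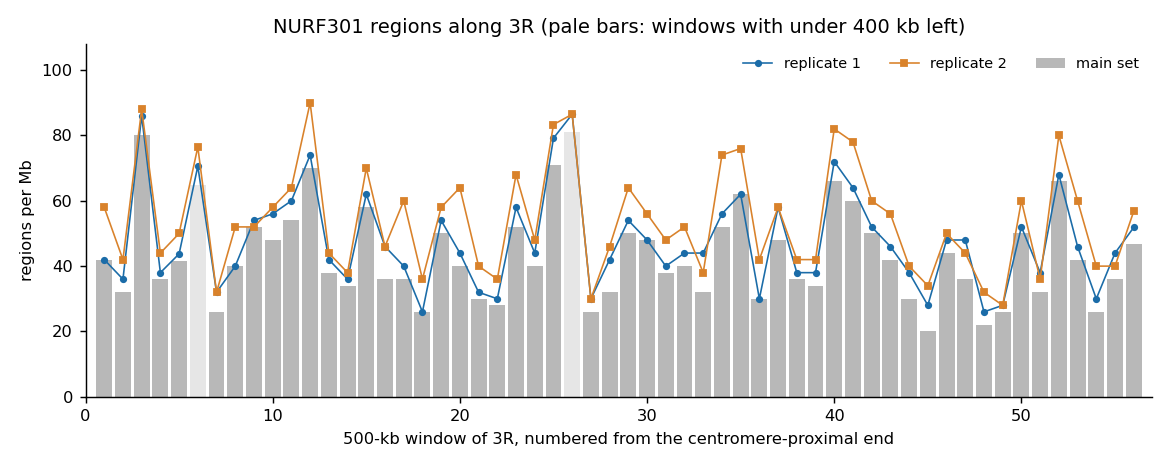
Regions per Mb in each 500-kb window of 3R, numbered from the centromere-proximal end, for the main set (bars), replicate 1 (circles) and replicate 2 (squares); pale bars are windows with under 400 kb left after the Hox complexes. Among windows with 400 kb or more, window 3 stands highest at 80 main-set regions per Mb and window 45 lowest at 20, and no window is empty.

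Density was then followed along the arm in 500-kb windows, each region assigned by its midpoint. NURF301 regions were present in each of the 56 windows. Among the 54 windows with 400 kb or more of sequence left, the main set ranged from 20 to 80 regions per Mb with a median of 40. Replicate 1 ranged from 26 to 86 with a median of 44, and replicate 2 from 28 to 90 with a median of 51.0.

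The densest window was near the centromere-proximal end of the arm sequence, from 1 to 1.5 Mb. It held 43 regions in replicate 1, 44 in replicate 2 and 40 in the main set, and 23.8% of its sequence was covered by the main set. Next came 12 to 12.5 Mb with 34 main-set regions on 480.0 kb, beside the second Hox complex, and 5.5 to 6 Mb with 35 on the whole window. The windows from 19.5 to 20 Mb and from 25.5 to 26 Mb followed with 33 each. In the 5 densest windows together lay 15.1% of the main set on 9.18% of the sequence.

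The sparsest window of the main set, from 22 to 22.5 Mb, held 14 regions in replicate 1 and 17 in replicate 2. Only 10 of these places were shared, so that its main set covered 5.34% of the sequence. It was also the window of lowest agreement, where 71.4% of replicate 1 regions and 58.8% of replicate 2 regions had a partner. Low agreement lowers the main-set count by the way that set was chosen. It was the sparsest window in neither replicate list, where the lowest counts were 13 in replicate 1 and 14 in replicate 2. The window from 23.5 to 24 Mb followed with 11 main-set regions, and those from 3 to 3.5, 8.5 to 9, 13 to 13.5, 24 to 24.5 and 26.5 to 27 Mb had 13 each. The 5 sparsest windows together held 5.17% of the main set.

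The replicates gave much the same map. Over the 54 windows, region density in replicate 1 and replicate 2 had a Pearson r of 0.93 and a Spearman rho of 0.90, and covered share an r of 0.96, given with no p because windows share libraries and caller. Of the 10 densest windows of each replicate, 8 were the same, and of the 10 sparsest, 7. Replicate 2 had more regions in 44 windows, replicate 1 in 5, and 5 windows were equal.

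Enrichment and density did not run together. Over the windows, the median score of the main set ranged from 0.54, at 15 to 15.5 Mb, to 0.93, at 16 to 16.5 Mb, and its r with density was -0.039. The densest window had a median score of 0.69, and the sparsest 0.73. Median scores were less repeatable between replicates than counts of regions, with an r of 0.54. In the window with the highest main-set median, replicate 2 gave 0.98 over 19 regions and replicate 1 gave 0.66 over 22. These medians cover different sets of regions, since only 17 in each replicate had a partner in the other. They therefore do not compare scores at shared regions. Median width varied little, from 2211 to 3123 bp.

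**Figure D2:**
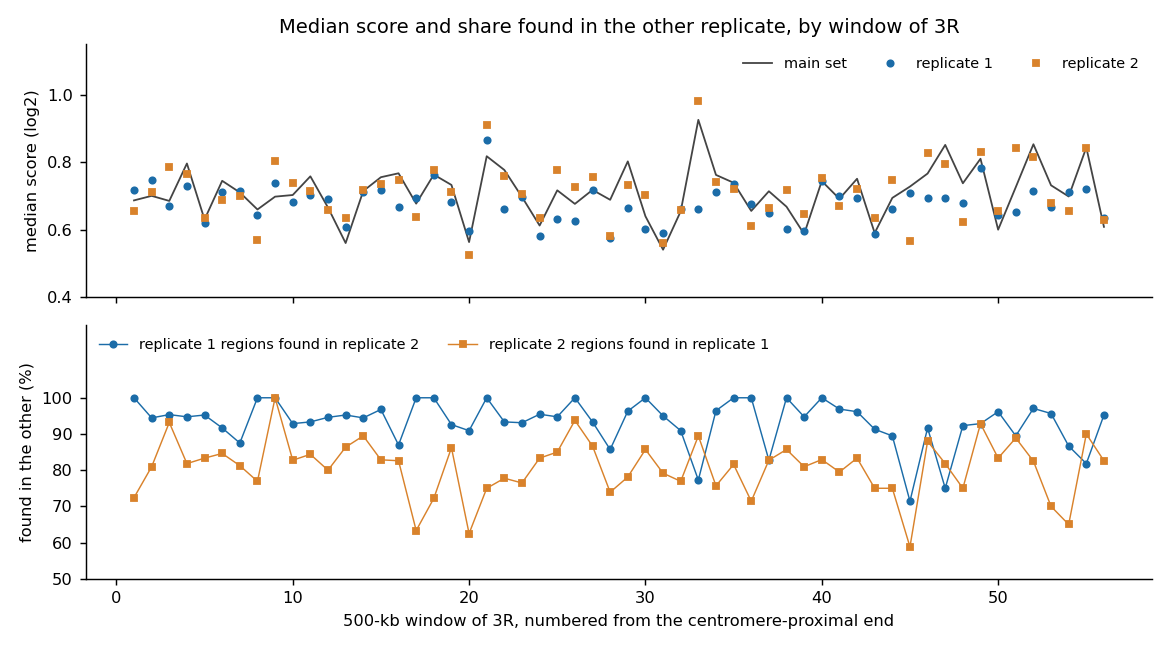
Upper panel, the median score (log2) of each 500-kb window of 3R in the main set (line), replicate 1 (circles) and replicate 2 (squares); lower panel, the share of each replicate's regions found in the other, in percent. Median scores stay between 0.53 and 0.98 in both replicates, and replicate 1 regions are found in replicate 2 more often than the reverse in most windows.

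When the arm was cut into 4 parts of equal length, density was lowest in the distal one. From the proximal end outwards, replicate 1 had 50.0, 45.9, 50.2 and 42.1 regions per Mb and replicate 2 had 55.5, 53.5, 58.1 and 46.7. Parts 1 and 3 were above parts 2 and 4 in both replicates. Median scores of the parts lay within 0.67 to 0.68 in replicate 1 and 0.69 to 0.71 in replicate 2.

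The centromere-proximal end of 3R was about as dense in regions as the rest of the arm over its first 500 kb. There, replicate 1 had 42 regions per Mb against 47.1 on the rest of the arm, a ratio of 0.891, and replicate 2 had 58 against 53.3, a ratio of 1.09. Over the first 1 Mb there were 39 regions in replicate 1 and 50 in replicate 2, and the ratio of density to the rest was 0.824 and 0.934, a mean of 0.879 ± 0.0776 (SD, n = 2). Over the first 2 Mb, which take in the densest window, the ratio passed 1, at 1.08 and 1.09.

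At the proximal ends of the other large arm sequences density was lower. In the proximal 1 Mb, the ratio of density to the rest of the arm on 3L was 0.221 ± 0.00462, on 2R 0.336 ± 0.0309, on the X 0.362 ± 0.0107 and on 2L 0.436 ± 0.00940 (SD, n = 2 for each). The gap between 3R and each of these exceeded the SD between replicates. Each arm is a single sequence, and the design holds no replicate arms, so the difference was not tested. The lists do not say to how much of each end reads could be mapped, nor how far from the centromere each arm sequence begins. The proximal ends are therefore not known to be matching places.

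In 500-kb steps from the proximal end of the sequence, the main set on 3R had 42, 32, 80 and 36 regions per Mb. On 3L, the other arm of the same chromosome, it had 6, 10, 16 and 32. The remaining arms began at 12 (2L and the X) and 14 (2R). From 2.5 to 5 Mb, the last step compared, the values of 3R lay among those of the others apart from the step next to the first Hox complex, at 64.7, and the step from 3 to 3.5 Mb, at 26.

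**Figure D3:**
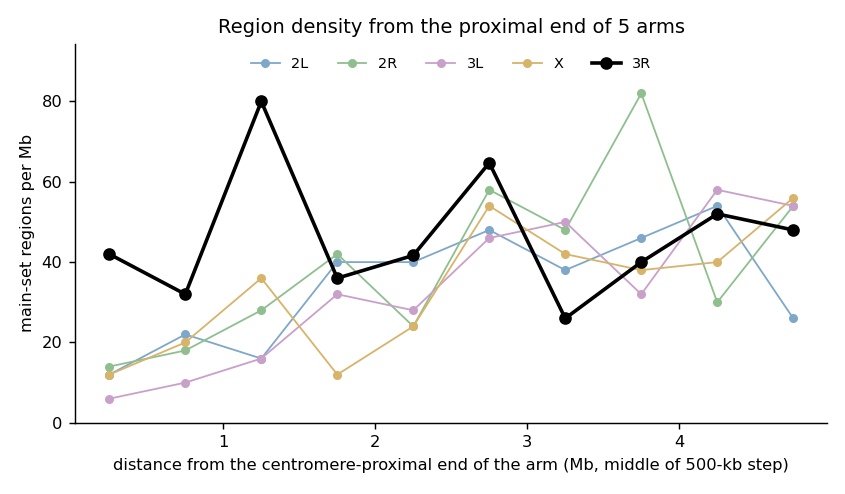
Main-set regions per Mb in 500-kb steps from the centromere-proximal end of 3R (black) and of 2L, 2R, 3L and the X; the step of 3R at 2.5 to 3 Mb rests on the 170 kb left beside a Hox complex. In the first 3 steps 3R lies above each of the other arms, at 42, 32 and 80 regions per Mb, while 3L starts at 6.

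The proximal regions were ordinary in strength and began near the end of the sequence. The median score of the first 1 Mb was 0.73 in replicate 1, against 0.68 on the rest of the arm, and 0.68 in replicate 2, against 0.70, so the replicates differed in direction. The outermost main-set region, at 11842 to 14214, scored 0.67 in replicate 1 and 0.48 in replicate 2. Next, at 21994 to 23782, lay one of the weakest regions of the main set, ranked 1152 of 1161 with a combined score of 0.27.

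Of the 10 most proximal main-set regions, the last of which ended at 208276, the strongest lay at 56800 to 60064. It scored 0.97 in replicate 1 and 1.16 in replicate 2, with 643 ChIP and 290 input counts in replicate 1. The combined list alone reached the very end, with a 1249-bp region at 4 to 1252 that neither replicate held.

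Density within the proximal end was uneven on a finer scale. In 100-kb steps, the main set had 9 regions from 200 to 300 kb, 1 from 300 to 400 kb, 0 from 800 to 900 kb, and 13 from 1400 to 1500 kb. No list held a region with its midpoint from 1700 to 1800 kb. The separate heterochromatic sequence of this arm, 3RHet, is 2.52 Mb long. It carried 11 and 10 regions in the replicates, or 4.17 ± 0.281 per Mb (SD, n = 2), below each 500-kb window of 3R.

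The distal end, towards the telomere, was close to the rest of the arm. The last 1 Mb had 45 regions in replicate 1 and 46 in replicate 2, with ratios to the rest of 0.955 and 0.857. The outermost main-set region, at 27892680 to 27895680, ended 9374 bp from the end of the sequence and scored 0.81 in replicate 1 and 0.97 in replicate 2. Its neighbour at 27876394 to 27879582 was stronger, at 1.19 and 1.14.

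Regions were unevenly spaced, with single regions the most frequent arrangement. The median gap between neighbouring main-set regions was 9746 bp, with quartiles at 3109.5 and 25490 bp, and the gaps over 50 kb, 118 in number, took up 39.9% of the sequence, although the 5 longest gaps each held regions outside the main set. When regions with 5 kb or less between them were joined into chains, 501 regions (43.2%) stood alone, 314 (27.0%) were in pairs, and 346 (29.8%) belonged to 96 chains of 3 or more. The number of such chains rested on the linking distance. It was 46 at 2.5 kb and 153 at 10 kb.

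**Figure D4:**
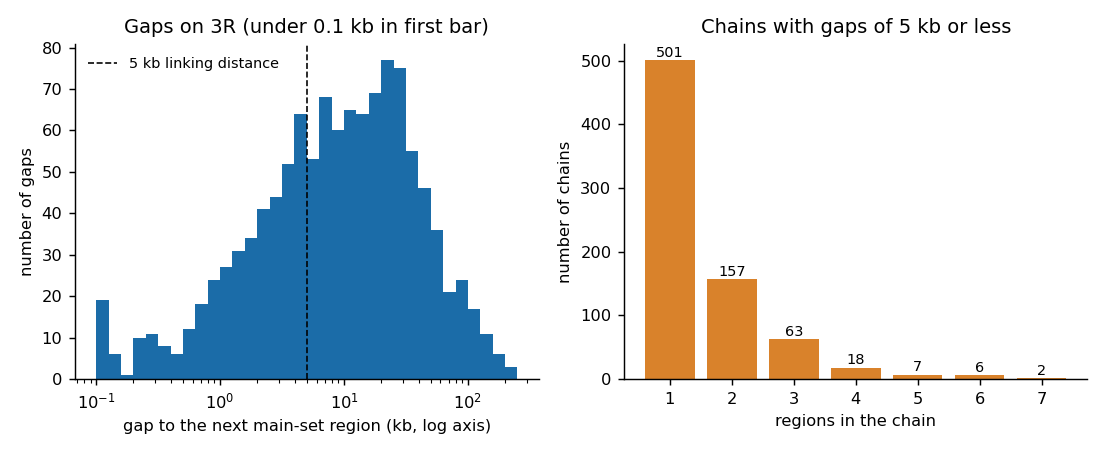
Left, the distribution of gaps between neighbouring main-set regions of 3R, in kb on a log axis, with gaps under 0.1 kb in the first bar and the 5-kb linking distance as a dashed line; right, the number of chains by the number of regions in them. Gaps run from 1 bp to 214 kb, and 501 regions stand alone while 2 chains hold 7 regions.

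Of the 96 chains of 3 or more, 87 (90.6%) also held a chain of 3 or more in both replicates, a share that the choice of main-set regions largely fixes. The 96 had a median span of 14.2 kb, of which their regions covered a median of 66.4%, and occurred in 47 of the 56 windows. Regions in them had a median score of 0.75, against 0.69 for regions that stood alone and 0.68 for those in pairs.

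The largest chain spanned 37.8 kb at 7033532 to 7071292 and had 7 regions in the combined list and in each replicate. Their combined-list scores, from the proximal side, were 0.76, 0.93, 1.16, 0.57, 0.45, 0.91 and 1.08. Regions 4 and 5 of the chain were the weakest in both replicates, and the lowest score was that of the fifth region, at 0.34 in replicate 1 and 0.61 in replicate 2.

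Another chain of 7, from 11087836 to 11118970, was 31.1 kb long with scores from 0.47 to 0.98, and its regions covered 72.2% of it. The next chains had 6 regions each and lay at 12060064 to 12090814, 5564842 to 5594722 and 4475320 to 4503732, spanning 30.8, 29.9 and 28.4 kb. In the last of them replicate 1 had 7 regions.

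The longest gap of the main set, 214 kb at 17921125 to 18135417, was empty in replicate 1 but held 2 regions of replicate 2 and 5 of the combined list. The others among the 5 longest lay at 18621039 to 18829013, 23533961 to 23741235, 24172321 to 24369239 and 10731005 to 10919243, and each held at least 1 region of replicate 2 and of the combined list. The longest stretch free of regions in all 3 lists was 173 kb at 24172321 to 24345278.

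It was followed by 170 kb at 11320229 to 11490233 and 155 kb at 311215 to 465766. The latter lies inside the proximal 1 Mb, and the fifth, 135 kb at 1689161 to 1823941, in the window that follows the densest one. In all, 10 such empty stretches exceeded 100 kb, and those over 50 kb, 74 in number, took up 20.4% of the sequence. On each other large arm the longest main-set gap was longer than on 3R, at 255 kb (2R), 293 kb (2L), 335 kb (X) and 388 kb (3L). These differences were not tested.

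Agreement between the replicates on 3R depended on strength. Of the 1280 regions of replicate 1, 1198 (93.6%, Wilson interval 92.1% to 94.8%) overlapped a region of replicate 2, and of the 1454 of replicate 2, 1173 (80.7%, Wilson interval 78.6% to 82.6%) overlapped one of replicate 1. In the top quartile by score the shares were 320 of 320 and 362 of 363. In the lowest quartile they were 84.7% (Wilson interval 80.3% to 88.2%) and 47.8% (42.7% to 52.9%). These intervals, at 95%, cover counting error only.

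Shared regions matched closely in place. Over 1170 reciprocal best pairs, midpoints lay a median of 79.25 bp apart, 58.8% within 100 bp and 94.2% within 500 bp. Of the main-set regions, 1105 (95.2%) were a single region in each replicate, and those that were split somewhere were wider, at a median of 4856 bp against 2537 bp. The overlap that placed a region in the main set was rarely small. In 23 regions (1.98%) under 50% of the width was overlapped in one of the replicates, and the smallest overlap was 104 bp, in replicate 2, at 11188466 to 11190310.

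Scores at shared regions kept their order, with a Spearman's rho of 0.84 and a Pearson r of 0.87 over the 1170 pairs, both descriptions across regions of the same 2 libraries. Replicate 2 was higher in 866 pairs (74.0%), with a median lead of 0.093 (log2). After this median was taken off, 71.4% of pairs differed by less than their counting error and 96.8% by less than 2 counting errors.

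The lead of replicate 2 grew with enrichment. In the lowest quartile of pairs by mean score, from 0.25 to 0.58, it was a median of 0.017, with replicate 2 higher in 54.6% of 293 pairs. In the next quartiles it was 0.082 and 0.12, and in the highest, from 0.94 to 1.79, it was 0.15, with replicate 2 higher in 88.1% of 293 pairs.

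**Figure D5:**
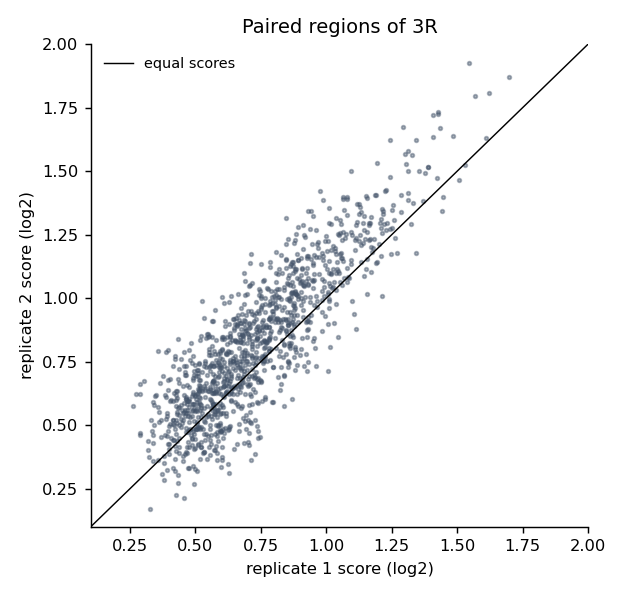
Scores (log2) of 1170 paired 3R regions in replicate 1 and replicate 2, each point a region, with the line of equal scores. Points lie about the line at low scores and mostly above it at high ones, where replicate 2 is higher in 88.1% of the top quartile.

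The 5 pairs with the largest score differences were all higher in replicate 2. At 17345067 to 17347736, positions of replicate 1, the score was 0.85 in replicate 1, from 549 ChIP and 270 input counts, and 1.32 in replicate 2, from 865 and 322. At 8258505 to 8260501 it was 0.53 and 0.99. The other pairs of the 5, starting at 23772618, 4484393 and 9204234, were higher in replicate 2 by 0.46, 0.45 and 0.43.

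Once the median lead of replicate 2 was taken off, the 5 largest departures were all in the other direction. The same shift was taken off every pair, although the median lead was 0.017 in the lowest quartile and 0.15 in the highest. The direction of the largest departures therefore depends on the shift chosen. At 22005561 to 22007673 the score was 0.71 in replicate 1 and 0.36 in replicate 2, and at 6532959 to 6535063 it was 0.73 and 0.39. The remaining 3 of the 5 largest departures started at 14409841, 23785410 and 14838888 in replicate 1. That at 23785410 belongs to the wide domain that the replicates cut at different places. The largest departure in units of its own counting error, over all pairs, was 3.38.

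Regions without a partner in the other replicate were the weaker ones. In replicate 1 the 82 unpaired regions scored 0.51 at the median and the shared ones 0.70, and in replicate 2 the 281 unpaired scored 0.48 and the shared 0.79. The median distance to the nearest region of the other replicate was 3931 bp and 4300 bp, and 12 and 42 of them, respectively, missed it by 1 kb or less.

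The strongest in replicate 1, at 24078556 to 24080032, scored 0.78 from 285 ChIP and 147 input counts, or 95 over 49 in lowest terms. This region lay 41961 bp from any region of replicate 2. It sat inside the sparse window from 24 to 24.5 Mb. The strongest in replicate 2, at 24618254 to 24619592, scored 0.96 over a width of 1339 bp. Its counts were put at 335 and 160, which are 67 over 32 in lowest terms. Both regions were present in the combined list, at 0.52 and 0.56, as were 77 of the 82 and 278 of the 281.

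The combined list added weak places on 3R. Beside the 1161 main-set regions it held 75 that overlapped replicate 1 only, 273 that overlapped replicate 2 only and 365 (19.5%) that overlapped neither. Their median scores were 0.33, 0.35 and 0.35, against 0.71 in the main set. Of the 365, 181 (49.6%) measured under 1301 bp, which is the least width seen on 3R in the replicate lists. On each large arm the narrowest region measured 1301 to 1304 bp in either replicate and 1001 bp in the combined list. The combined list thus held narrower regions than the replicate lists on all of these arms.

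Beside the other large arms, the mean density of 3R, 50.2 regions per Mb, was below that of 2R (55.1 ± 4.98) and above the X (46.8 ± 4.32), 3L (46.1 ± 4.06) and 2L (45.9 ± 3.78), each with SD and n = 2. These differences are of the size of the SD, but replicate 2 was denser than replicate 1 on each of these arms. The order of the arms was the same in both replicates. From the densest, replicate 1 had 51.5 (2R), 47.0 (3R), 43.8 (X), 43.3 (3L) and 43.2 (2L) regions per Mb. Replicate 2 had 58.6, 53.4, 49.9, 49.0 and 48.5. The median score of 3R, 0.69 ± 0.018, was above that of 2L alone, at 0.67, and the highest was that of the X, at 0.78. Its lowest window, at 20 main-set regions per Mb, stood above the lowest of 3L (6), the X (11.8), 2L (12) and 2R (14). Its highest, at 80, equalled that of 3L and lay between the X (66) and 2L (88). With 1 sequence per arm these values were not tested.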

How the data were processed

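ChIP-seq of NURF301 in 2 ChIP and 2 input libraries was used as 3 deposited lists of enriched regions, 1 per ChIP replicate and 1 combined. The aligner was Bowtie 0.12.7, per the submitters' processing notes. The region caller, its threshold and the way in which the lists were joined were not given in the sources used here. The deposited score is a log2 value. Divided by 1 constant per list (0.885, 0.927 and 0.908), 2 to the power of the score gave fractions of whole numbers in 100% of regions (denominator at most 3000, relative tolerance 2e-10), against 0.143%, 0.0791% and 0.158% with a wrong constant. Counts are those fractions times the multiple nearest the list's typical input density. The numerator was taken as ChIP. Neither choice is stated in the files.

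Python 3.11.15 with numpy 2.4.6, pandas 2.3.3 and scipy 1.17.1 was used, and the overlap, gap and count-recovery steps were tested on simulated data. In nearly all simulated regions input counts followed width, which the choice of multiple also assumes. Regions, lists and rules were chosen with earlier results of these data known. Regions named are the 10 strongest and 5 widest, the 10 most proximal and 5 most distal, the 5 longest gaps, largest chains, densest and sparsest windows, strongest unpaired regions per replicate and largest pair differences. Pairs are given by raw difference, and also after the median difference was taken off, an addition to the rule. Empty stretches over all lists, the 4 parts of the arm and score quartiles were added once the data had been seen. With 1 group of 2 replicates no test between groups was made. Gene context and sequence were left out, because the annotation at hand is of release 6.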

Additional observations from a re-analysis of the deposited data

How the results depend on the processing

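Of 100 values recomputed under the alternatives, 63 moved by less than the spread between the replicate lists (for counts, by less than 1.5 times, for the correlation, by less than 0.05, and for shares, by less than the half-width of their Wilson interval). A 50% reciprocal overlap lowered the shares found in the other replicate to 89.0% and 78.3%. With scores of 0.5 or more only, the first share was 88.4%, window density had a median of 29.6 with extremes of 14 and 68 per Mb, the longest gap was 261 kb, there were 55 chains of 3 or more, the median score was 0.79 and the median width 2752 bp. Merging regions closer than 500 bp gave a highest window of 76 per Mb and a median width of 2701 bp. The whole combined list gave 1874 regions, windows of 64, 38 and 106 per Mb (median, lowest, highest), a longest gap of 173 kb, 219 chains, a median score of 0.51 and a median width of 2246 bp. Windows of 200 kb ran from 5 to 105 per Mb, those of 1000 kb from 29 to 62, and windows moved by 250 kb reached 76. The proximal density ratio of the main set was 0.863 over 1 Mb, 0.984 over 0.5 Mb and 1.12 over 2 Mb, so its side of 1 depends on the length taken. The chain count was 46 at 2.5 kb and 153 at 10 kb. With a single replicate required, leaving out the other in turn, there were 1236 to 1434 regions, median window density was 42.9 to 50.9 per Mb, the lowest window 24 to 28, the highest 84 to 86, the proximal ratio 0.832 to 0.908, the longest gap 207 to 214 kb, the chains 106 to 141, the median score 0.62 to 0.68 and the median width 2443 to 2525 bp. The cause of these shifts was not tested. No paired analysis was possible because the inputs, which the labels tie to the ChIP list of the same number, have no lists of their own, and no result comes from a test between groups. The lists hold no values outside the called regions, so what depth limits there could not be measured.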

Other observations

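The highest score among all combined-list regions of 3R, 2.56, belonged to a 1001-bp region at 3533832 to 3534832 that overlapped neither replicate. Its score stood for 13 ChIP over 2 input counts in lowest terms, which the count recovery scaled to 1482 and 228 by its width. The score alone does not tell which multiple is right. The next 9 regions by score all overlapped both replicates. The next highest score, 1.74, stood for 526 over 143, scaled to 2104 and 572.

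A main-set region's combined score was not a simple average of its replicate scores. In 445 regions (38.3%) it lay below the score of the strongest overlapping region in each replicate, and in 714 it lay between them. All 1874 region starts of the combined list fall on even bases, while 49.8% of region starts in replicate 1 and 47.9% in replicate 2 are even.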
